A study of Mus musculus with 3 samples.

Results

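The nuclei described here come from aortic valve structures of newborn mice and were chosen by their counts of 7 fat genes. For 8 of them the fat cell label was not borne out by its own markers, as described below. In each of 3 pools, nuclei with at least 1000 UMIs (unique molecular identifiers, 1 per captured RNA molecule) and at most 5% of UMIs from mitochondrial genes were kept. A kept nucleus was a member when at least 3 of Adipoq, Pparg, Plin1, Cidec, Cidea, Ucp1 and Plin4 were detected and Adipoq, Plin1, Cidec and Cidea together had at least 2 UMIs. Of 14073 kept nuclei among 21140 deposited, 78 were members: 57 of 7071 in pool 1, 11 of 3253 in pool 2 and 10 of 3749 in pool 3. These are 0.806%, 0.338% and 0.267% of the kept nuclei, with Wilson 95% intervals of 0.623% to 1.04%, 0.189% to 0.605% and 0.145% to 0.490%. Intervals of this kind cover counting error only. Without nuclei of 30000 or more UMIs, which are described below, the shares were 0.727%, 0.309% and 0.0540% on 51, 10 and 2 members.

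All pools belong to 1 group, so the comparisons are between kinds of nuclei within pools. All pups, B6.Cg-Scx<tm1.1(EGFP)Skom mice at postnatal day 1, carry an EGFP allele of Scx, a tendon transcription factor gene. Their zygosity, sex and litters are not stated. Each pool holds 22 to 24 aortic roots, so that a pool is the replicate and single pups cannot be told apart. Nuclei were read with the gene expression part of the 10x Genomics Multiome assay.

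Fat around large vessels stores triglyceride in lipid droplets and, in rodents near the heart, is often of the brown type. Brown fat cells break the triglyceride down to fatty acids, oxidise these in many mitochondria and release heat through uncoupling protein 1, encoded by Ucp1. The factor PPAR gamma, encoded by Pparg, drives the fat cell programme, and noradrenaline from sympathetic nerves switches heat production on through cyclic AMP. The labels give no position in the tissue for a nucleus, so that the word perivascular cannot be checked here.

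Before the results, 15 of the 78 members need to be set apart. They had 30000 or more UMIs, with a median of 76031 and up to 348249, and they came as 6, 1 and 8 nuclei from pools 1, 2 and 3. UMIs of the 7 rule genes made up between 0.394 and 7.62 per 10000 UMIs in them, against 4.05 to 141 in the 63 members under 30000 UMIs. Each of the 15 also met between 4 and 7 of 7 marker gates for other cell classes, where a gate needs 3 or more of a class's markers. The 103 other kept nuclei with 30000 or more UMIs met 2 to 7 gates, with a median of 5 against 6 in the 15. In the 63, the median was 1 gate, and 68.3% met at least 1 gate, against 93.2% of the other kept nuclei. At 3 or more gates the order turned, with 30.2% of the 63 and 19.2% of the other kept nuclei, and 44.4% of the 63 met the fibroblast gate against 35.0%. Pool 3 was left with 2 members and 12851 UMIs once the deep nuclei were set aside, while pools 1 and 2 kept 51 and 10 members with 445448 and 63659 UMIs. The limit of 30000 UMIs was chosen after these values were seen. Whether the deep barcodes hold RNA of more than 1 nucleus was not tested, and no doublet caller was run on the members. Results are given with all 78 members and with the 63.

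**Figure D1:**
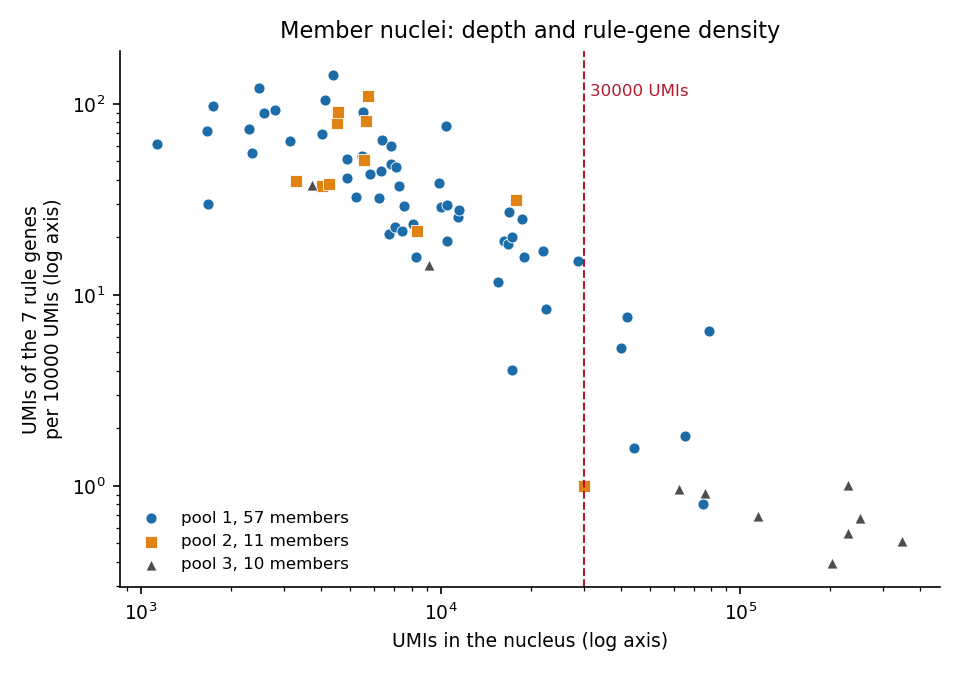
Each point is 1 of the 78 member nuclei, with its UMI total on the horizontal axis and the UMIs of the 7 rule genes per 10000 UMIs on the vertical axis, both on log scales, and colour and shape give the pool. The 15 nuclei to the right of the dashed line at 30000 UMIs lie at 7.62 or less, and 8 of the 10 members of pool 3 are among them.

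The rule genes are described without a test because they chose the nuclei. Adipoq, which encodes the fat cell hormone adiponectin, was detected in 31 of 51, 7 of 10 and 2 of 2 of the 63 members in pools 1, 2 and 3. Plin1, the main coat protein of the fat cell's lipid droplet, was detected in 47, 9 and 2 of them, and Pparg in 51, 8 and 2. Cidec, which helps droplets fuse, was found in 37, 5 and 0, and Plin4, another droplet coat protein, in 35, 7 and 1. The brown fat genes Cidea and Ucp1 were detected in 18, 6 and 0 and in 21, 6 and 0 of the 51, 10 and 2 nuclei. As summed levels in the 63, in UMIs per 1000000 UMIs (CPM), Pparg stood at 1859, 2309 and 1478 in pools 1, 2 and 3 and at 24.6, 27.6 and 25.1 in the other nuclei, and Ucp1 at 218, 1225 and 0 against 1.17, 1.38 and 0.111. Pparg was thus high in all 3 pools, while Ucp1 was highest in pool 2. In the 8 deep members of pool 3, Adipoq, Cidec and Ucp1 had 0 UMIs, while Cidea and Plin4 were detected in all 8. The fat cell label is therefore not borne out for those 8 nuclei by its own markers. Among the 13995 other kept nuclei, 43 had an Adipoq UMI (0.307%), 20 a Plin1 UMI (0.143%) and 872 a Pparg UMI (6.23%), at a median depth of 4266 UMIs against 6364 in the 63. After every nucleus was thinned to 1000 UMIs, Pparg was detected in 79.4% of the 63 and 2.03% of the other nuclei.

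Just inside the rule were 20 members with exactly 3 rule genes and 12 with exactly 2 UMIs over the 4 counted genes. Just outside were 20 nuclei with 3 or more rule genes but 1 such UMI, and 15 with 2 rule genes and 2 or more such UMIs. The median rule-gene density was 18.3 and 2.81 per 10000 UMIs in the first pair of sets and 2.11 and 2.73 in the second. Members near the UMI limit therefore resembled the excluded nuclei in this measure.

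Markers of other cell types were summed in the 63 and in the other nuclei as a description. The 8 cardiomyocyte markers summed to 1955, 2623 and 77.8 CPM in pools 1, 2 and 3, against 9273, 12868 and 13683 in the other nuclei. The 8 endothelial markers summed to 1033, 393 and 156 CPM against 1715, 1898 and 1465, and the 8 fibroblast markers to 1001, 1492 and 545 CPM against 2215, 2451 and 1374. The 8 smooth muscle markers, at 1587, 1461 and 2334 CPM, stood against 2235, 1880 and 2251 in the other nuclei, and the 6 pericyte markers, at 429, 267 and 156 CPM, against 403, 363 and 365. At 0 UMIs in the 63 were the pericyte markers Higd1b and Vtn, the valve interstitial marker Matn4, the mesothelial marker Upk1b, the macrophage markers F13a1 and Cd163, the melanocyte markers Dct, Tyrp1 and Mlana, the lymphatic markers Mmrn1 and Flt4, and the Schwann cell markers Sox10, Erbb3, Cdh19 and Foxd3. With the 15 deep nuclei included, the cardiomyocyte markers summed to 13068 CPM in the members of pool 3. The part that RNA of other cells plays in the results below was not tested. Barcodes were shared between pools 198 times, and 3 members carried a barcode also found in another pool.

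Members were compared with all other kept nuclei by summing UMI counts per pool, with the 7 rule genes left out. With all 78 members, 259 genes were higher and 117 lower in members of 17604 tested, or 2.14% in all, at an adjusted p under 0.05 (edgeR's quasi-likelihood test, pool as a block). With the 63 members under 30000 UMIs and other nuclei under the same limit, 497 were higher and 474 lower of 16767, or 5.79%. The calls shared by both fits numbered 332, which is 88.3% of the first set and 34.2% of the second, and all 332 had the same direction. In pool 3, all members held 1526092 UMIs and the 63 held 12851, where 1 UMI amounts to 77.8 CPM. CPM values of the 63 thus do not show that pool's part in fits with all members. A single UMI there can lie above all comparator values, and the share of all genes without overlap was not counted. Standard errors and p-values draw on the spread of all genes and do not measure a gene's own spread between pools. The count with all 78 members rested on the design. It was 4 (1 higher, 3 lower) without the pool block, 66 (56 higher, 10 lower) with DESeq2 and 4 (4 higher, 0 lower) against 1 depth-matched other nucleus per member. It was 20, 2 and 666 without pool 1, 2 or 3. Without pool 2, 0 genes were higher, so that no rise of a list gene with all members was called in that fit. For the 63 the count was 1498 without the pool block, 348 with DESeq2 and 126 (of 2596 genes) against depth-matched nuclei, and 67, 237 and 933 without pool 1, 2 or 3. In the 63, the median log2 difference over all genes was -0.25 with edgeR's scaling and -0.10 with that of DESeq2, so that small falls should be read against that shift. List counts fell with DESeq2, as did calls over all genes. The lipid droplet, glycerolipid and thermogenic lists described next had 3 of 15, 1 of 12 and 1 of 22 genes higher with all members. Over all genes, 56 of the 15556 with an adjusted p were higher. With the 63 the lists had 9 of 15, 6 of 11 and 7 of 23, and all genes 193 of 10265. List totals with DESeq2 are genes fitted, including any without an adjusted p.

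Promoters are printed for 3 fat genes that carry matches to motifs of factors with known roles in this tissue. RefSeq windows of 300 bases (250 before to 50 after a start, build GRCm38.p6) were held for 48 of the 63 genes outside the rule that were called higher in both fits and belong to a fat list. Dio2 (chr12:90738989-90739288, minus strand) and Pck1 (chr2:173152823-173153122, plus strand) hold a match to TGACGTNA, the core of the cyclic AMP response element, and Plin1 (chr7:79732727-79733026, minus strand), a rule gene, holds the C/EBP pattern TTGCNNAA. Capitals mark the matches, on either strand, and Dio2 holds both patterns.
Dio2: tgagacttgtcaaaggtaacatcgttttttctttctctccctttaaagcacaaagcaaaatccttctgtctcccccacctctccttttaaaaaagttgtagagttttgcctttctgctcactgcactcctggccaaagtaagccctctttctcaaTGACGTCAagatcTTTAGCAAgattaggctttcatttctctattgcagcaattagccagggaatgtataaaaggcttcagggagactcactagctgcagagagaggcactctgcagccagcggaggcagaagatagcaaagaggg
Pck1: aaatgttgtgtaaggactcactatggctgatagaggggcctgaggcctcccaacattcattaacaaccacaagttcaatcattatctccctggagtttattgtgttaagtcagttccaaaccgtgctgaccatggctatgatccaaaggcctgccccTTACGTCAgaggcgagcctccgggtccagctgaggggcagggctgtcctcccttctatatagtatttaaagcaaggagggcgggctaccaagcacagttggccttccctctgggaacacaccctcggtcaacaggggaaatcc
Plin1: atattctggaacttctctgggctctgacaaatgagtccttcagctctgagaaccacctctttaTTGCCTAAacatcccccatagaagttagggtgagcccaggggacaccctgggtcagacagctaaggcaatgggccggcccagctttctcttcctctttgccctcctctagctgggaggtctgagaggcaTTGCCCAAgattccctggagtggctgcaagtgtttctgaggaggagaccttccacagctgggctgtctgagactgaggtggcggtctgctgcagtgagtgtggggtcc

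The cyclic AMP element began 95 bases before the start in Dio2 and 93 in Pck1, and no match overlapped another in these windows. TGACGTNA was found in 6 of 72 windows of those 48 genes (8.33%), in Clstn3, Cycs, Dio2, Pck1, Pnpla3 and Tmem120b, and in 2.93% of all 32851 windows. TTGCNNAA was found in 5 of 72 (6.94%) against 10.8%, and a palindromic EBF pattern in 1 of 72 (1.39%) against 0.904%. The ERR pattern TCAAGGTCA and a direct-repeat PPAR pattern were in 0 of 72, against 0.423% and 0.0396%. These are matches of letters in short windows and describe no binding.

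Genes of lipid droplets and their breakdown were higher in members. Of 15 such genes tested, 11 were called higher with all 78 members and 12 with the 63, against 1.47% and 2.96% of all genes called higher, and 0 were lower in either fit. The median log2 difference over the list was 1.33 and 2.25, against -0.05 and -0.25 over all genes. The shares of 1.47% and 2.96% higher, and 0.665% and 2.83% lower, apply to every list set against all other nuclei below. Lipe, the hormone-sensitive lipase, stood at 525, 943 and 77.8 CPM in the 63 members of pools 1, 2 and 3 and at 16.5, 17.2 and 17.0 CPM in the other nuclei. The 3 member values lay above all 3 others, but the 77.8 CPM of pool 3 is 1 UMI. The log2 difference of Lipe was 3.38 ± 0.27 (SE) with all 78 members (adjusted p = 1.2e-31) and 4.58 ± 0.58 with the 63. G0s2, an inhibitor of the lipase ATGL, reached 312 and 613 CPM in pools 1 and 2 but had 0 UMIs in the 2 members of pool 3, against 14.5, 20.6 and 11.8 CPM in the other nuclei. Pnpla2, which encodes ATGL itself, was at 78.6, 236 and 0 CPM against 10.9, 13.4 and 7.57, a log2 difference of 1.94 ± 0.34 with all members and 3.02 ± 0.40 with the 63. The glycerol channel gene Aqp7 was higher by 3.82 ± 0.58 and 5.62 ± 0.41, and the droplet coat gene Plin5, which ties droplets to mitochondria, by 2.66 ± 0.62 and 4.40 ± 0.44. Plin3, Fitm1 and Hilpda did not pass the test in either fit, and Abhd5, the activator of ATGL, passed it only with the 63.

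**Figure D2:**
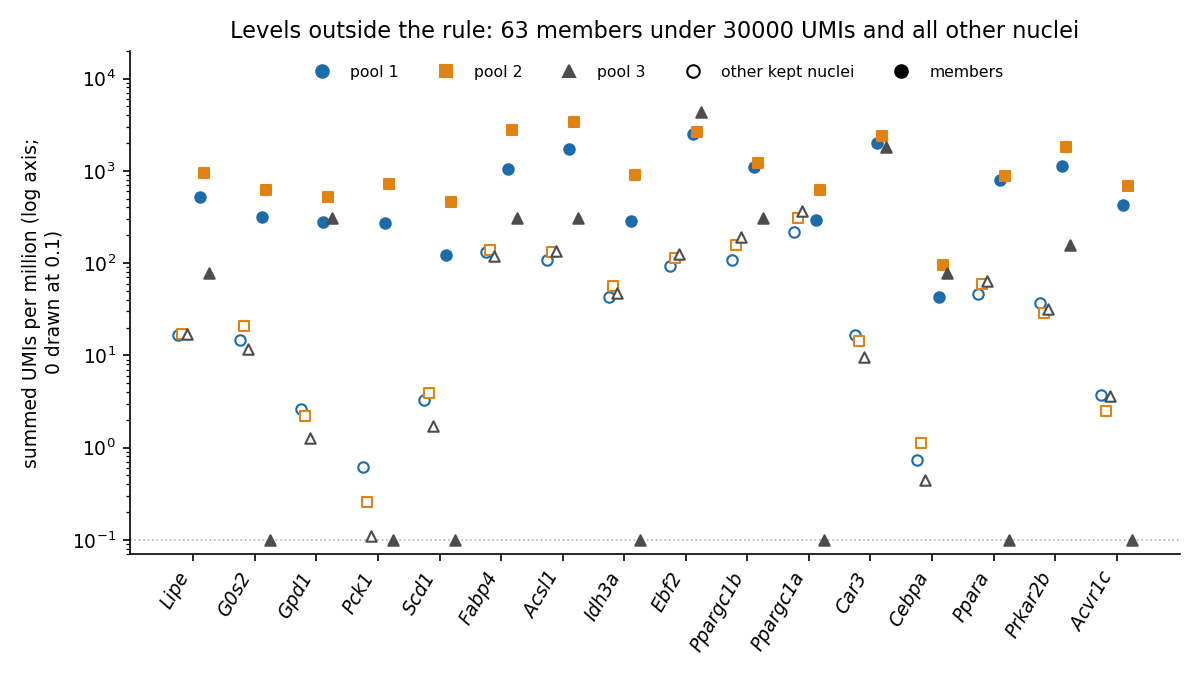
Summed levels in CPM (log axis, with 0 drawn at 0.1) are shown for 16 genes outside the rule, with open symbols for the other kept nuclei, filled symbols for the 63 members under 30000 UMIs, and colour and shape for the pool. Filled symbols of pools 1 and 2 lie above the open ones by wide margins for Lipe, Gpd1, Pck1 and Car3, whereas Ppargc1a overlaps, and several values are at 0 in pool 3, which has 2 such members with 12851 UMIs.

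Synthesis of triglyceride showed the same direction, with 8 of 12 genes called higher with all members and 9 of 11 with the 63, and 0 lower. Gpd1, which makes the glycerol 3-phosphate backbone, was at 276, 518 and 311 CPM in the 63 and at 2.61, 2.19 and 1.27 CPM in the other nuclei. Its log2 difference was 5.51 ± 0.34 (adjusted p = 1.4e-53) and 6.96 ± 0.51 with the 63. With all members, Gpd1 in pool 3 was at 5.90 CPM against 1.27. Pck1, which in fat cells supplies that backbone from smaller precursors, was at 269 and 723 CPM in pools 1 and 2 and at 0 UMIs in pool 3, against 0.609, 0.255 and 0.111 CPM in the other nuclei. Pcx, which feeds the same route, was at 231, 471 and 467 CPM in the 63 against 5.97, 6.17 and 6.08. The transferase genes Agpat2 and Dgat1 rose by 1.78 ± 0.35 and 1.58 ± 0.30 on the log2 scale with all members. Dgat2 and Lpin1 passed the test with the 63 alone, and Gk, a kinase for free glycerol, with all members alone.

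Of 13 genes of fatty acid synthesis, 4 were called higher with all members and 5 with the 63, and 0 were lower in either fit. The genes called higher were Scd1, a desaturase, the lipogenic regulators Thrsp, Srebf1 and Mlxipl, and, with the 63 alone, Elovl6. Scd1 was at 123, 456 and 0 CPM in the 63 and at 3.24, 3.87 and 1.71 CPM elsewhere, a log2 difference of 4.16 ± 0.40 with all members. The core enzyme gene Fasn stood at 31.4, 62.8 and 77.8 CPM against 15.6, 18.9 and 10.8 and did not pass the test, with log2 differences of 0.86 ± 0.36 and 1.07 ± 0.48. The data do not settle whether Fasn differs. It had 19 UMIs in the 63, and why it did not pass was not tested.

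Among 12 genes for taking up fatty acids, 4 were higher in each fit and 0 lower. Fabp4, the fat cell's fatty acid carrier, was at 1051, 2780 and 311 CPM against 133, 138 and 119. Acsl1, which activates fatty acids as coenzyme A esters, was at 1740, 3346 and 311 CPM against 108, 131 and 136, and Lpl, the lipase at the vessel wall, at 382, 895 and 156 CPM against 74.2, 117 and 107. Their log2 differences with all members were 1.94 ± 0.27, 2.48 ± 0.29 and 1.46 ± 0.23. In all 3 genes, every pool's members lay above every pool's other nuclei, but 1 UMI in the 2 members of pool 3 amounts to 77.8 CPM. The share of all genes ordered this way was not counted. Cd36, the surface receptor for fatty acids, passed the test with all members (0.98 ± 0.25) but not with the 63 (1.00 ± 0.54), and Angptl4, an inhibitor of Lpl, with the 63 alone.

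Fatty acid oxidation and respiration were counted next. Of 18 oxidation genes, 9 were higher with all members and 5 with the 63, and 0 were lower, with list medians of 0.82 and 1.25. The 5 were Cpt2 and Slc25a20 of the carnitine shuttle and the enzyme genes Acadvl, Hadh and Ehhadh. Hadh stood at 173, 424 and 77.8 CPM against 37.3, 45.6 and 35.1. Of 25 genes of the citrate cycle and the respiratory chain, 6 were higher in each fit and 0 lower, with 5 shared. Without the 2 members of pool 3, the 63 gave 13 of 18 and 13 of 25 genes higher in these 2 lists, where 471 of 16836 genes were higher. With DESeq2 the 63 gave 1 and 3, where 193 of 10265 genes with an adjusted p were higher. All 78 members gave 0 and 1 with DESeq2, where 56 of 15556 were. The citrate cycle genes Cs and Idh3a were among the 5 shared, with log2 differences of 1.30 ± 0.23 and 1.81 ± 0.24 with all members. Idh3a was at 285, 895 and 0 CPM against 43.0, 56.5 and 47.2. The other nuclei include cardiomyocytes, which express these genes as well, and the comparison with single classes is given further on.

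**Figure D3:**
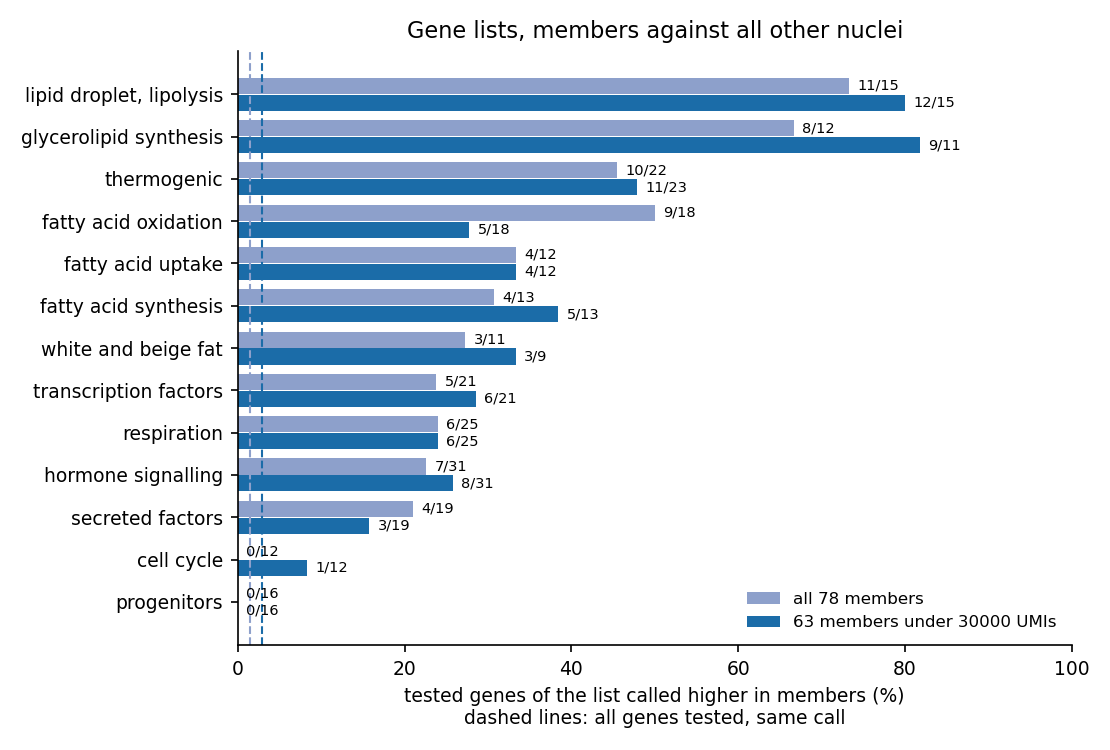
Bars give the percentage of each list's tested genes called higher in members than in all other nuclei, in pale blue for all 78 members and in dark blue for the 63 under 30000 UMIs, with the counts printed beside them and the share over all genes tested as dashed lines at 1.47% and 2.96%. Lipid droplet and glycerolipid genes stand at the top with 11 of 15 and 8 of 12 for all members, and progenitor genes at 0 of 16 in both fits.

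The thermogenic list held 29 genes besides the rule genes. Called higher were 10 of 22 tested with all members and 11 of 23 with the 63, and 0 were lower. Ebf2, a transcription factor of the brown fat lineage, was at 2503, 2623 and 4358 CPM in the 63 and at 93.1, 113 and 125 CPM in the other nuclei, a log2 difference of 2.86 ± 0.30 (adjusted p = 4.1e-19) and 4.30 ± 0.52 with the 63. With all members, Ebf2 in pool 3 was at 158 CPM against 125. Ppargc1b, a coactivator of mitochondrial genes, was at 1087, 1210 and 311 CPM against 109, 157 and 190. Its relative Ppargc1a, which cold induces in brown fat, was at 292, 613 and 0 CPM against 217, 305 and 367, and the groups overlapped. The log2 difference of Ppargc1a was 0.12 ± 0.24 with all members and -0.13 ± 0.52 with the 63, and neither passed the test. Dio2, the enzyme that activates thyroid hormone inside brown fat cells, was at 22.4, 220 and 0 CPM against 2.92, 3.26 and 2.71. Nrg4, a factor secreted by brown fat, was at 114, 267 and 0 CPM against 5.07, 4.89 and 4.53, with log2 differences of 3.05 ± 0.40 and 4.55 ± 0.39. The nuclear receptors Esrra and Esrrg, the potassium channel Kcnk3, and the brown fat genes Lhx8, Clstn3 and Letmd1 were also higher in both fits. Prdm16, a determinant of brown fat, was at 566, 361 and 1323 CPM against 265, 196 and 257 and did not pass the test (0.39 ± 0.24 and 0.95 ± 0.49). The brown fat genes Zic1, Fgf21 and Bmp8b and the regulator Irf4 had 0 UMIs in the 2410952 UMIs of all members, and the beta-3 adrenergic receptor Adrb3 had 5, 0 and 1.

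The 63 members differed among themselves in Ucp1. In pool 1, 21 had a Ucp1 UMI and 30 had none, at median depths of 7071 and 6774 UMIs, and in pool 2, 6 had one and 4 had none, at 5086 and 4880. The following values describe summed UMIs of each set with exact Poisson 95% intervals, which cover counting error only, and the split was chosen after values were seen and was not tested. Of 224 genes looked at besides Ucp1, the intervals of the 2 sets were apart for 21 in pool 1 and 13 in pool 2, and for 7 in both pools, with 6 higher and 1 lower beside Ucp1. The 6 include Cidea, which helped choose these nuclei, so that its difference is no result. Cidea, itself a rule gene, was at 163 CPM (114 to 227) with Ucp1 and 30.3 CPM (12.2 to 62.4) without in pool 1, and at 626 CPM (409 to 917) and 0 UMIs in pool 2. Pdk4, which spares glucose when fat is burned, was at 121 CPM (79.3 to 178) and 26.0 CPM (9.53 to 56.5) in pool 1 and at 433 CPM (257 to 685) and 45.2 CPM (1.15 to 252) in pool 2. Gk was at 285 CPM (218 to 366) and 156 CPM (109 to 216) in pool 1, and at 1131 CPM (831 to 1504) and 45.2 CPM (1.15 to 252) in pool 2. The intervals of Pck1 and Fabp4 were likewise apart in both pools, with the higher value beside Ucp1, as were those of Gnas, which encodes the G protein that couples adrenergic receptors to cyclic AMP. Car3, a carbonic anhydrase abundant in fat, went the other way, at 1601 CPM (1436 to 1779) with Ucp1 and 2384 CPM (2189 to 2591) without in pool 1 and at 1781 CPM (1398 to 2236) and 3574 CPM (2829 to 4454) in pool 2. Nnat was lower with Ucp1 in pool 1, at 350 CPM (275 to 439) against 1108 CPM (976 to 1252), but not in pool 2, at 602 CPM (389 to 888) against 588 CPM (313 to 1006). In pool 1 the preadipocyte gene Dlk1 was at 14.0 CPM (2.89 to 40.9) with Ucp1 and 108 CPM (70.0 to 160) without, and in pool 2 its intervals overlapped. Lipe and Ppargc1a had overlapping intervals in both pools.

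**Figure D4:**
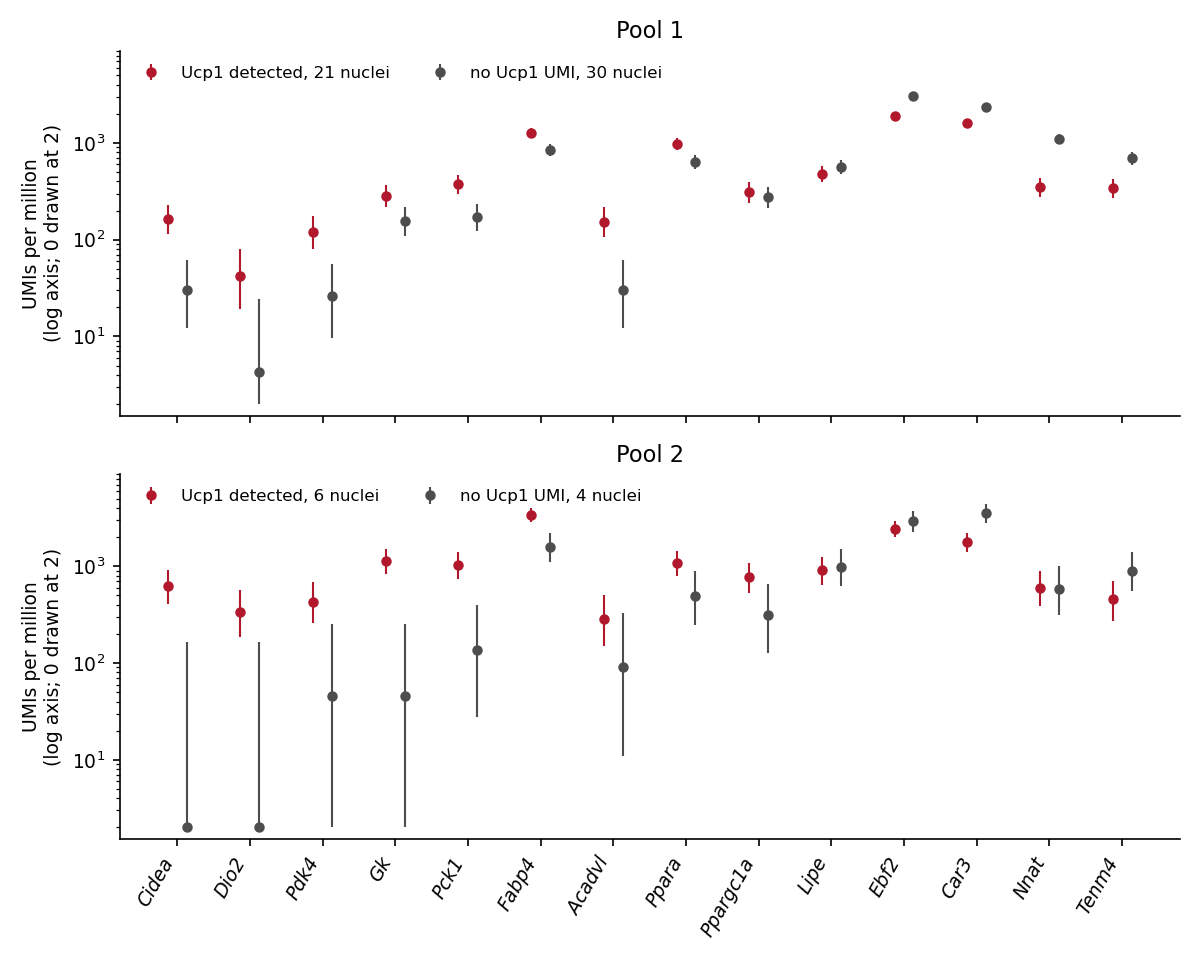
Summed levels in CPM (log axis, 0 drawn at 2) of members under 30000 UMIs are shown with exact Poisson 95% intervals, in red for nuclei with a Ucp1 UMI and in grey for those without, with pool 1 above and pool 2 below. Pdk4, Gk, Pck1 and Fabp4 lie higher in red in both pools, as does the rule gene Cidea, which helped choose the nuclei, and Car3 lies higher in grey in both.

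Transcription factors of fat cells gave 5 of 21 genes higher with all members and 6 higher and 1 lower with the 63. Over all genes, 1.47% and 2.96% were higher, and 2.83% were lower with the 63. Cebpa, a partner of PPAR gamma, was at 42.7, 94.3 and 77.8 CPM in the 63 and at 0.731, 1.12 and 0.442 CPM elsewhere, with log2 differences of 4.53 ± 0.65 (adjusted p = 1.5e-09) and 5.85 ± 0.43. Ppara, the receptor that drives fatty acid oxidation genes, was at 804, 880 and 0 CPM against 45.9, 59.7 and 64.6. Rxrg, a partner of the PPAR receptors, Ebf3, a relative of Ebf2, and the repressor Bcl6 were also higher in both fits, and Nr1h3, a sterol sensor, with the 63 alone, while Creb5 was lower with the 63.

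Receptor and signalling genes for hormones gave 7 of 31 higher with all members and 8 of 31 with the 63, and 0 lower. Acvr1c, a receptor for activin-type ligands that restrains lipolysis in fat, was at 424, 691 and 0 CPM against 3.68, 2.50 and 3.65, and its log2 difference was 5.15 ± 0.32 (adjusted p = 5.0e-54) and 6.73 ± 0.61. Prkar2b, the regulatory subunit through which cyclic AMP acts in fat, was at 1116, 1822 and 156 CPM against 36.6, 28.7 and 32.1. The alpha-1A adrenergic receptor gene Adra1a was at 117, 236 and 0 CPM against 4.31, 4.08 and 4.81. On the insulin side, Irs2, Akt2, Pde3b and Trarg1, which aids the glucose transporter GLUT4, were higher in both fits, whereas the insulin receptor gene Insr stood at 269, 220 and 156 CPM against 281, 276 and 332 and did not pass the test.

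Genes linked to white or beige fat gave 3 of 11 higher and 1 lower with all members and 3 of 9 higher with the 63, and 8 of its 19 genes were too low to test with all members. Car3 was at 2007, 2403 and 1790 CPM in the 63 and at 16.7, 14.1 and 9.68 CPM elsewhere, a log2 difference of 5.03 ± 0.33 (adjusted p = 1.3e-47) and 6.80 ± 0.59. With all members, Car3 in pool 3 was at 18.3 CPM against 9.68. Nnat, an imprinted gene of developing brain and fat, was at 743, 597 and 1167 CPM against 27.5, 29.2 and 21.3. Cfd, the adipokine adipsin, was higher in both fits on 15 UMIs in the 63, and Npr3, a clearance receptor for natriuretic peptides, was lower with all members. The white fat hormones leptin and resistin had 3 UMIs of Lep and 4 of Retn in all members. Of 19 secreted factors, 4 were higher and 2 lower with all members and 3 and 4 with the 63. Over all genes, 1.47% were higher and 0.665% lower with all members, and 2.96% and 2.83% with the 63. Lgals12, a droplet-bound galectin, was at 103, 126 and 0 CPM in the 63 against 0.244, 0.357 and 0.0553, and Nampt and Tenm4 were also higher in both fits. Igf1 and Nrg1, both growth factors, were lower in both fits.

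Progenitor genes of the fat lineage gave 0 higher and 1 lower of 16 with all members and 0 higher and 3 lower with the 63, where 0.665% and 2.83% of all genes were lower. Dpp4, a mark of early fibroblast-like progenitors, had 0 UMIs in the 63 and stood at 40.6, 40.3 and 31.1 CPM in the other nuclei. Zfp521, which opposes fat cell formation, was at 182, 0 and 77.8 CPM against 369, 415 and 442 and was lower with the 63 alone, with a log2 difference of -2.42 ± 0.60.

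Cell cycle genes were found in 21.8% of members and 8.22% of other nuclei. After thinning to 1000 UMIs, 17 of 78 members (Wilson interval 14.1% to 32.2%) had 2 or more UMIs of 12 cell cycle genes, which defines these shares, against 1150 of 13995 other nuclei (7.77% to 8.68%). The shares were 21.1%, 27.3% and 20.0% in pools 1, 2 and 3, against 8.85%, 8.42% and 6.85%, and the intervals of members and others were apart in pools 1 and 2 but not in pool 3. With the 63 it was 15 of 63 (23.8%), and in the fibroblast-gated nuclei 116 of 1028 (11.3%). Without thinning, the shares were 57.7% of members and 21.3% of the others, and no test over pools was run. By gene, 0 of 12 passed the test with all members and 1 with the 63, Mki67, a protein of dividing cells, at 173, 236 and 156 CPM against 52.3, 60.1 and 38.6.

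The genes with the largest rises, by a rule that asked for an adjusted p under 0.05 and the same direction in 3 of 3 pools, included several outside the lists. Slc36a2, an amino acid transporter known from brown fat, was at 853, 1335 and 156 CPM in the 63 and at 1.88, 1.58 and 1.27 CPM in the other nuclei, with log2 differences of 7.15 ± 0.35 (adjusted p = 4.9e-88) and 8.48 ± 0.72. With all members, Slc36a2 in pool 3 was at 1.31 CPM against 1.27, so that its direction there was near equality. Among the other genes the rule named were receptor genes: Sctr, the secretin receptor, was higher by 6.35 ± 0.75, Klb, the coreceptor of FGF21, by 6.10 ± 0.54, and Tshr, the thyrotropin receptor, by 3.93 ± 0.59 with all members. The adaptor genes Irs4 and Sh2b2, which act in insulin signalling, were higher by 5.49 ± 0.70 and 3.82 ± 0.48. Irs4 with all members of pool 3 was at 0.655 CPM against 0.608. In pool 3, all members held 1 UMI of Klb, 2 of Tshr and 5 of Sh2b2, and the 63 held 0 of each, so that the direction of these 3 genes there rests on the deep nuclei. In the 63, Sctr was at 89.8, 47.1 and 311 CPM against 0.268, 0.357 and 0.221, with 40, 3 and 4 UMIs behind these values.

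By fitted value the largest falls with all members were those of Dnajc6, which encodes the clathrin cochaperone auxilin, and the predicted gene Gm40331. Dnajc6 had 0 UMIs in all members, against 9.77, 6.27 and 4.92 CPM in the other nuclei, and Gm40331 had 0, 0 and 1 UMIs in pools 1, 2 and 3, against 5.36 to 9.22 CPM. Bnc1, a mesothelial transcription factor, had 0 UMIs in the 63 and 2 in all members, against 14.7, 11.7 and 7.69 CPM in the other nuclei, and Gpm6a, a membrane protein gene, was at 105, 10.7 and 309 CPM in all members and at 33.7, 0 and 0 CPM in the 63, against 722, 646 and 526. Its level in pool 3 thus depended on the deep nuclei. The haemoglobin genes Hbb-bt, Hbb-bs and Hba-a1 were lower with all members, with log2 differences of -3.47 ± 0.29, -2.99 ± 0.29 and -2.28 ± 0.28, but were at 0.46, 0.45 and 0.93 against depth-matched nuclei, so that their direction turned with the comparator.

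Members were also set against single classes, gated as nuclei with 3 or more markers of that class and fewer than 3 of every other gated class. There were 1028 fibroblast-gated, 1698 cardiomyocyte-gated, 1677 endothelial-gated and 1499 smooth muscle-gated nuclei, and the 4 comparisons share the member sums. Of 13602 genes, 24.9%, 41.2%, 32.4% and 25% were called in these comparisons, with 14.2%, 20.4%, 17% and 15% higher in members. With the 63, of 13549 genes, 10.4%, 13.4%, 12.8% and 10.5% were higher. Genes of a gate are no result where they define the comparator.

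Respiration genes were compared with each class in turn. Higher were 24 of 25 respiration genes against fibroblast-gated nuclei, 23 against endothelial-gated and 24 against smooth muscle-gated nuclei, and 24, 22 and 23 with the 63, with 0 lower. Cardiomyocyte markers moved with them: of 8, 8, 8 and 7 were higher in all members than in the same 3 classes, and 7, 7 and 6 with the 63. These classes were gated to hold fewer than 3 cardiomyocyte markers per nucleus, while 52.4% of the 63 had 3 or more. The 20 members that met no gate, 16, 3 and 1 from pools 1, 2 and 3, are low in these markers by their choice, and 18, 15 and 14 of 25 respiration genes were higher in them, where 4.01%, 4.72% and 4.16% of 13401 genes were higher. The part of cardiomyocyte RNA in all these counts was not tested. Against cardiomyocyte-gated nuclei, 0 respiration genes were higher and 7 of 25 lower with all members, where 20.8% of all genes were lower, and 6 were higher and 1 lower with the 63, where 13.4% were higher and 16.9% lower. With 25 genes in the list, no direction is read from these counts. Ogdh of the citrate cycle was lower than in cardiomyocyte-gated nuclei in both fits (log2 difference -0.98 ± 0.14 and -0.69 ± 0.20), whereas Idh3a was at 0.17 ± 0.34 with all members and was higher with the 63 (1.23 ± 0.23).

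Fatty acid oxidation was compared in the same way. Of 18 genes, 14, 16 and 13 were higher than in fibroblast-, endothelial- and smooth muscle-gated nuclei with all members and 15, 16 and 16 with the 63, beside the higher cardiomyocyte markers given above. In the 20 members that met no gate, 14, 15 and 13 were higher. The carnitine carrier gene Slc25a20 was at 126, 298 and 0 CPM in the 63 and 13.5, 14.5 and 14.3 CPM in fibroblast-gated nuclei, and Hadha at 326, 848 and 0 CPM and 78.9, 92.0 and 54.2 CPM. Against cardiomyocyte-gated nuclei, 0 oxidation genes were higher and 6 lower with all members and 5 higher and 3 lower with the 63, against the same shares over all genes. Cpt1a, the liver-type enzyme at the entry of the carnitine shuttle, Hadhb and Pdk4 were lower in both fits, and Ehhadh of the peroxisome was at 49.4, 267 and 0 CPM against 19.4, 18.5 and 15.1 and was higher with the 63.

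**Figure D5:**
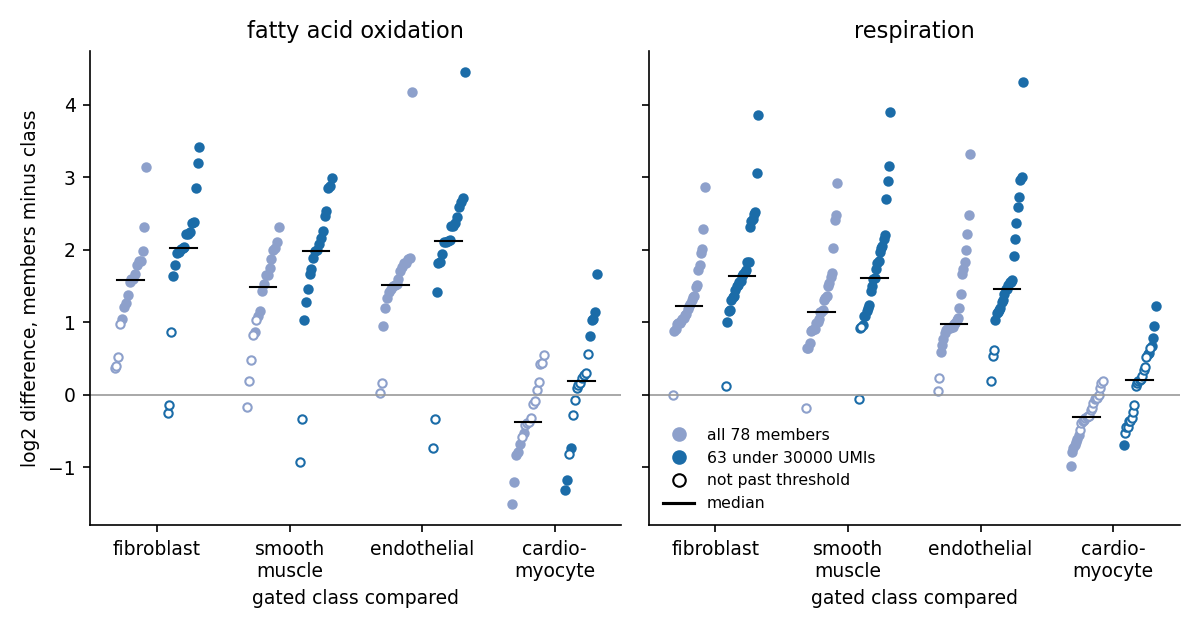
Each point is 1 gene's log2 difference, members minus the gated class named on the horizontal axis, for 18 fatty acid oxidation genes on the left and 25 respiration genes on the right, with pale points for all 78 members, dark points for the 63, open points where the test was not passed and black lines for medians. Medians lie between 0.98 and 2.13 against fibroblast-, smooth muscle- and endothelial-gated nuclei and between -0.38 and 0.21 against cardiomyocyte-gated nuclei.

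Thermogenic regulators depended on the comparator. Ppargc1a, which did not pass the test against all other nuclei, was higher than in fibroblast-gated nuclei by 3.58 ± 0.22 (3.55 ± 0.30 with the 63) and lower than in cardiomyocyte-gated nuclei, with a log2 difference of -2.01 ± 0.17 (-2.02 ± 0.23). Its levels in the gated classes were 24.1, 26.9 and 26.6 CPM for fibroblasts and 853, 940 and 1056 CPM for cardiomyocytes, on either side of the 292 and 613 CPM of the 63 in pools 1 and 2. Prdm16 was higher than in fibroblast-gated nuclei by 3.87 ± 0.23 and 4.39 ± 0.25, and Ppara by 3.70 ± 0.49 and 4.90 ± 0.26. In the 20 members that met no gate, the log2 differences of Ppargc1a, Prdm16 and Ppara were 3.91, 4.46 and 5.25. Cardiomyocyte markers were also higher than in fibroblast-gated nuclei with all members and with the 63, and their part in these differences was not tested. Ebf2 was also present in fibroblast-gated nuclei, at 895, 995 and 1007 CPM, and its log2 difference was -0.18 ± 0.48 with all members, which did not pass the test, and 1.18 ± 0.20 with the 63, which did. Over the list, 13, 15 and 15 of 19 thermogenic genes were higher than in fibroblast-, endothelial- and smooth muscle-gated nuclei with all members, with 0, 0 and 1 lower, and 13, 14 and 13 with the 63, with 1, 0 and 0 lower. Against cardiomyocyte-gated nuclei, 4 of 19 were higher and 10 lower with all members, where 20.4% and 20.8% of all genes were, and 5 were higher and 5 lower with the 63, where 13.4% and 16.9% were. Ebf2, Nrg4 and Letmd1 were higher than in cardiomyocyte-gated nuclei in both fits, and 4 genes were lower in both: Ppargc1a, the beta-1 adrenergic receptor gene Adrb1, the calcium pump gene Atp2a2 and the mitochondrial carrier gene Ucp3.

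Against fibroblast-gated nuclei, 11 of 16 progenitor genes were lower in each fit, 10 of them in both, and 0 were higher, where 10.7% of all genes were lower with all members and 12.6% with the 63. Without the gate genes Pdgfra and Pi16 it was 9 of 14 in each fit. Dlk1 was at 62.9, 110 and 0 CPM in the 63 and at 280, 382 and 251 CPM in fibroblast-gated nuclei, Cd34 at 69.6, 47.1 and 77.8 against 144, 205 and 198 CPM, and Zfp521 at 182, 0 and 77.8 against 398, 376 and 442 CPM. In all 3 genes, the members of every pool lay below the fibroblasts of every pool. In pool 3 this rests on 0 UMIs of Dlk1 and 1 each of Cd34 and Zfp521. The share of all genes ordered this way was not counted.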

How the data were processed

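The authors deposited raw UMI counts per gene and nucleus for each pool, as matrices with their barcodes and gene names, from Cell Ranger 7.0.1 and 7.1.0 on the genome build GRCm39, per the submitters' processing notes. The deposited counts are not normalized, and barcodes were already taken as nuclei. The files name 36167 features. Pools had 49918251, 25341316 and 21254247 UMIs, which limits low genes in small sets of nuclei.

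Counts of members and of comparators were summed per pool. The sums went into edgeR's quasi-likelihood test (edgeR 4.0.16 in R 4.3.3) with TMM factors and its default low-count filter, and Benjamini-Hochberg adjusted p-values cover every gene in the fit. Pool was a block because all sums of a pool come from 1 library, which is the source of the pairing. Residual degrees of freedom were 2 against the other nuclei and 8 against the gated classes. DESeq2 1.42.0 was an alternative. The procedure was also run on simulated counts with known changes, and the outcome is not given here. Nothing says whether pools came from separate litters, so that p-values speak for these pools only. The test draws its spread partly from all genes, so that a p-value does not measure a gene's own spread between pools. Slc36a2 with all members is a case, at 501, 907 and 1.31 CPM against 1.88, 1.58 and 1.27. In the depth-matched alternative, the match was poor in pool 3 (median 69774.5 against 158744 UMIs). Doublets were not called, and members meeting another gate were left out in an alternative. The added limit of 30000 UMIs, alone or with a second choice, was chosen after seeing the data. Named genes are list genes plus, per comparison, the largest changes with an adjusted p under 0.05 and 1 direction in 3 of 3 pools. Members and lists were chosen with earlier results of these data known. Wilson intervals are at 95%. Some genes are not reported here.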

Additional observations from a re-analysis of the deposited data

How the results depend on the processing

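Against the other nuclei, 376 genes were called with all 78 members. The count was 387, 373, 400 and 289 with at least 2000 or 500 UMIs, at most 10% mitochondrial UMIs or a member rule of 4 or more rule genes and 3 or more UMIs, and 344 with no low-count filter. It moved to 66 with DESeq2, 4 with no replicate block, 4 against depth-matched nuclei (592 at an unadjusted p under 0.05) and 920 (204 higher, 716 lower) without the 58 members that met another gate, where the median log2 difference over all genes was -1.83, and leaving out each pool gave 2 to 666. With the 63 members it was 971, and from there 1498 with no replicate block, 126 against depth-matched nuclei and 348 with DESeq2, with 67, 237 and 933 without pool 1, 2 or 3. Fewer genes could be tested in the depth-matched sums. The cause of the other moves was not tested.

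In the comparisons with gated classes, the counts with all members were 3389 for fibroblasts, 5598 for cardiomyocytes, 4407 for the endothelial class and 3396 for smooth muscle. Leaving out each pool gave 1960 to 2768, 3936 to 4955, 2830 to 3712 and 1930 to 2726. Without members that met another gate it was 2513 for cardiomyocytes (426 higher) and 2849 for the endothelial class (633 higher), and for fibroblasts 538 were higher and 2004 lower, against 1935 and 1454. DESeq2, no replicate block (2863, 4980, 4058 and 2877) and no filter kept each count within 1.5 times. The mean member share over pools was 0.470% and fell to 0.115% without members that met another gate, with 0.302% to 0.572% when a pool was left out. The cell cycle share was 22.8% as a mean over pools, 60.8% without thinning, 33.8% at 1 or more UMI and 33.9% with the 63, and 20.5% to 24.2% when a pool was left out.

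Signs turned for Ppargc1a against other nuclei (0.12 with all members): it was -0.062 without members that met another gate and -0.031 without pool 2 (up to 0.23 without pool 3), and with the 63 it was -0.13, then -0.28 with DESeq2, -0.030 with no replicate block, and -0.86 and -0.88 without pool 1 or 2. Depth-matched nuclei turned Hbb-bt to 0.46, Hbb-bs to 0.45 and Hba-a1 to 0.93, and with the 63 Hbb-bs to 0.83 and Hba-a1 to 1.15. Elovl6 was -2.00 without members that met another gate. Ebf2 against fibroblasts was 0.15 with DESeq2, 0.13 with no replicate block, 1.5 without members that met another gate, -0.84 without pool 1 and 0.72 without pool 3, 1.18 with the 63 and 1.16 with the 63 without pool 3. Against cardiomyocytes without pool 2, Ehhadh was -0.078 (up to 1.28 without pool 3) and Idh3a -0.33. Of 110 named results, 95 kept direction and side of the threshold with the 63, 57 with DESeq2, 34 of 100 with no replicate block, 16 of 86 against depth-matched nuclei and 48 of 100, 31 of 100 and 100 of 110 without pool 1, 2 or 3.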

Other observations

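EGFP, read from the Scx allele, was seen in 14 of 78 members (17.9%) and in 552 of 13995 other kept nuclei (3.94%) before thinning. After thinning to 1000 UMIs it was in 0 of 78 members and in 0.822% of the other nuclei. The upper limit of 0 of 78 is 3.85%, so that the 0 shows no lower share in members. Of the 63 members under 30000 UMIs, 1 had an EGFP UMI before thinning (1.59%), so that 13 of the 14 lay among the 15 deep nuclei. Scx itself had 1 UMI in all members.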
